A study of Mus musculus with 4 samples.

Results

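Lysosomal hydrolases and lysosomal membrane proteins were examined in recruited alveolar macrophages, the cells that enter the airspaces from blood monocytes after lung injury. The group was chosen by symbol: 37 genes for lysosomal enzymes, their cofactors and the proteins of the lysosomal membrane, leaving out the cathepsins and the subunits of the proton pump. All 37 were present among the 16360 genes of the count table, and all 37 passed the filter on low counts that left 13575 genes for testing. Cells came from male CD57/Bl6 mice aged 8 to 10 weeks, either wild type (WT) or carrying EC-SOD homozygous R213G. EC-SOD is extracellular superoxide dismutase, a secreted antioxidant enzyme, and R213G replaces an arginine in the part of the protein that binds matrix. Mice of either genotype had received bleomycin, a drug toxic to the lung epithelium, by the intratracheal route (100 µl of a 1 U/ml solution). After 7 days, cells high in CD64 and CD11b and low in Siglec-F were collected by flow sorting. Uninjured lungs and resident macrophages are not analysed here, so the comparison is of genotype within injury. Each genotype had 2 libraries of poly(A) RNA. Nothing in the labels ties a library to a single mouse, and the spread between libraries may therefore be partly technical.

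Lysosomes are acidic compartments in which macrophages break down what they have engulfed, including surfactant lipids, dead cells and matrix. The hydrolases are each specific for a kind of bond, so a sugar chain or a glycolipid is dismantled by several enzymes in turn, and loss of many of them causes a storage disease. Membrane proteins such as LAMP1 and LAMP2 shield the limiting membrane, while channels and transporters carry calcium, cholesterol and amino acids out. TFEB is a transcription factor that binds E-box motifs of the CACGTG type near the start of many lysosomal genes. It is held in the cytoplasm when the kinase mTORC1 is active at the lysosome.

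Promoter windows of 300 bases, from 250 before to 50 after the annotated start, were available from RefSeq (GRCm38.p6) for 34 of the 37 genes. The hexamer CACGTG was present, read on both strands, in the windows of 10 of the 34 genes (29.4%). It was present for 12% of the 9755 tested genes with a window and for 8.09% of all 27025 genes with a window. The 7-letter form TCACGTG, which contains the hexamer, was present in the same 10 genes, against 7.11% of tested genes. The palindrome TCACGTGA, which contains both, was found in Gla, Mcoln1 and Cln3 (8.82% against 2.23%). Cln3 alone held the 10-letter CLEAR consensus, which extends that palindrome (2.94% against 0.851%). These are matches of letters and not measured binding sites. The stretches before the start are shown because they carry CACGTG, a type of motif that TFEB binds. Which factor, if any, binds them was not tested. Capitals mark CACGTG, and where an exon of any gene is annotated over the stretch, at most 30 bases are given.
Lamp1, chr8:13159088-13159160, plus strand: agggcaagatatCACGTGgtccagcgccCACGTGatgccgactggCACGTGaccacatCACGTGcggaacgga
Mcoln1, chr8:3500462-3500491, plus strand: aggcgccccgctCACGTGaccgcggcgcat
Cln3, chr7:126583340-126583369, minus strand: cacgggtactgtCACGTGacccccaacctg
Gla, chrX:134601182-134601211, minus strand: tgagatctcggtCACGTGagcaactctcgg
Glb1, chr9:114401018-114401047, plus strand: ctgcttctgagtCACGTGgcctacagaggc
Lgmn, chr12:102439124-102439153, minus strand: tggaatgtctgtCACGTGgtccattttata
Naglu, chr11:101070009-101070038, plus strand: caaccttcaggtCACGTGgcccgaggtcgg
Sgsh, chr11:119355522-119355551, minus strand: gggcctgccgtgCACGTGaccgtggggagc
Arsa, chr15:89477425-89477452, minus strand: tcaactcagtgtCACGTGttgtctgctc
Gaa, chr11:119267811-119267840, plus strand: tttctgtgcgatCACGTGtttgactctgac
In all, 16 hexamers were found, and each had T before it or A after it. Lamp1 held 4 of them within its last 61 bases before the start. Gla held its pair farthest away, from 227 bases before the start.

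**Figure D1:**
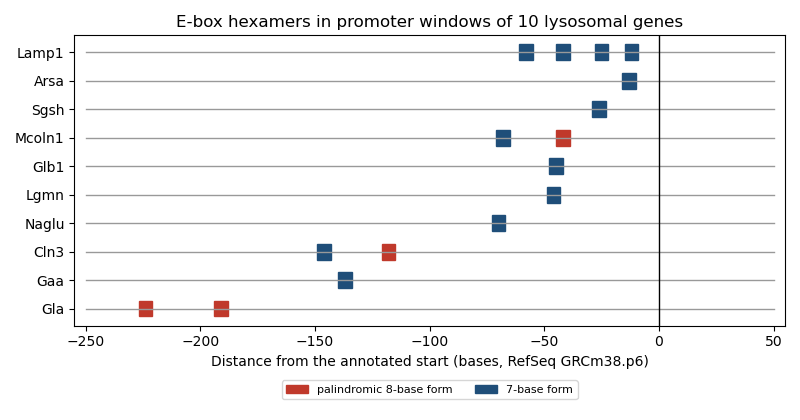
Position of each CACGTG hexamer (boxes) in the promoter windows of the 10 lysosomal genes that hold one, in bases from the annotated start (vertical line at 0). Red boxes mark the palindromic 8-base form and blue boxes the others; 11 of the 16 hexamers lie within 80 bases before the start.

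Total counts ranged from 33488569 to 35176210 per library. R213G replicate 1 had the fewest detected genes, 13584 against 14598 to 15194 in the other libraries, and the highest level of the noncoding transcript Gm42418, 1689 CPM against 513 to 702 CPM. CPM are counts per 1e6 counts of the filtered library size after TMM normalization. Transcripts of the sort-gate genes were in the order of the gate: Fcgr1, which encodes CD64, was at 243 to 261 CPM, Itgam, which encodes CD11b, at 721 to 886 CPM, and Siglecf at 10.8 to 12.1 CPM. Markers of other cells, summed over those that passed the filter on low counts, were at 65.0 to 85.6 CPM for the 3 tested of 10 neutrophil markers, 8.23 to 16.0 CPM for 3 of 9 T and NK cell markers, 6.32 to 23.9 CPM for 2 of 6 B cell markers, 14.3 to 34.5 CPM for 5 of 11 epithelial markers and 6.50 to 9.14 CPM for 3 of 9 endothelial and fibroblast markers. The highest of each were Csf3r, Cd4, Ighm, Epcam and Kdr. The 8 dendritic cell markers, led by Ccr7, summed to 219 and 67.6 CPM in R213G and 219 and 54.6 CPM in WT, with the gap inside each genotype. The 10 resident alveolar macrophage markers, led by the proton pump gene Atp6v0d2, summed to 663 to 1037 CPM. Those of recruited macrophages and the gate, led by Apoe, summed to 14393 to 20443 CPM.

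Together the 37 lysosomal genes took 3.94% and 4.52% of all counts in the R213G libraries (replicates 1 and 2) and 4.42% and 4.22% in the WT libraries. Psap alone took 1.72% to 2.01%. It encodes prosaposin, which lysosomal proteases cut into the saposins that present sphingolipids to their hydrolases. Levels of different genes were compared per length, as CPM per kb of annotated exon, with the SD over the 4 libraries. All 37 genes lay above the median of the 13259 tested genes with a length, and 25 of them were in the top 10%. Psap, Grn, Laptm5, Lamp1 and Lgmn together held 69.5% to 70.5% of the counts of the 37 genes.

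Psap stood alone at the top, at 6899.7 ± 576 CPM per kb. The next 3 were not separated by their spread: Lgmn, the asparagine-specific protease legumain, at 1052 ± 97.4 CPM per kb, Grn, the precursor of the granulins, at 951 ± 106 and Lamp1 at 932 ± 91.8. Laptm5, a lysosomal membrane protein of blood cells, followed at 707 to 755 CPM per kb and did not overlap the 532 to 683 of Hexa, the alpha subunit of beta-hexosaminidase. A gap then led to Gm2a, the activator protein that lifts the ganglioside GM2 to that enzyme, at 254 ± 13.4 CPM per kb. It lay close to Npc2, the soluble carrier of cholesterol, at 224 ± 7.14. From Lamp2 to Gaa, 6 neighbours in the order (Lamp2, Ppt1, Fuca1, Npc1, Galns and Gaa) lay between 62.7 and 71.5 CPM per kb, each closer to the next than the larger of their SDs. The lower end held the regulator Tfeb at 14.4 ± 1.69 CPM per kb, the calcium channel gene Mcoln1 at 13.8 ± 1.87 and Galc, which removes galactose from myelin lipids, at 7.94 ± 0.564. The places of Tfeb, Mcoln1 and Galc rest on their annotated exons: per kb of the longest transcript they were at 34.7, 36.0 and 26.6 CPM per kb. By that length Sgsh was the lowest of the 37 genes, at 15.4 CPM per kb.

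**Figure D2:**
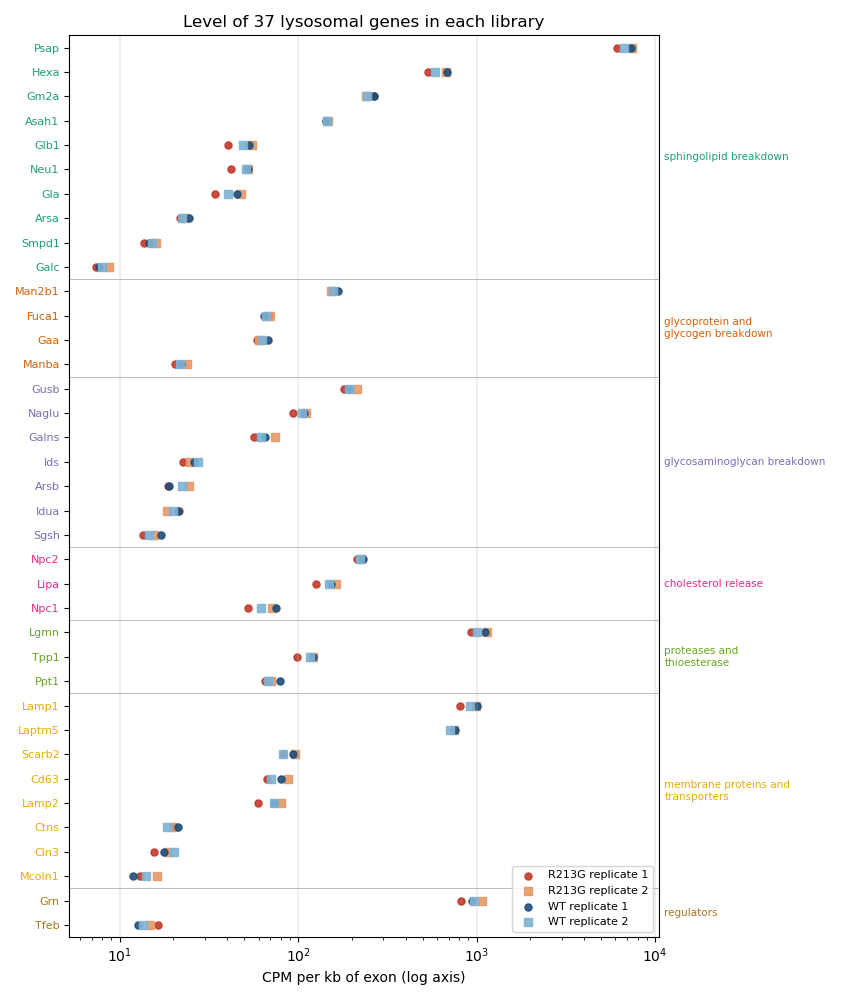
Level of the 37 genes in CPM per kb of exon on a log axis, by role, with 1 point per library (red and orange, R213G replicates 1 and 2; dark and light blue, WT replicates 1 and 2). Levels span from 7.94 for Galc to 6899.7 for Psap, and the 4 libraries lie close together in each row.

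The main comparison was R213G against WT. None of the 37 genes passed: 0 were higher and 0 lower at an adjusted p under 0.05 by the quasi-likelihood test of edgeR (Benjamini-Hochberg over 13575 genes), where the share called among all tested genes was 0% in either direction. At an unadjusted p under 0.05 there were also 0 of 37, against 2.22% of all tested genes. DESeq2 and limma voom called 0 of the 37 as well. Log2 fold changes, R213G minus WT, ran from -0.17 for Ids to 0.26 for Tfeb. Of the 37, 13 were positive, against 49.1% of all tested genes, and the median was -0.051, against -0.0056 over all tested genes. The 95% intervals of all 37 differences lay within 1.5-fold in either direction. Over all tested genes 36.1% did, and 89.4% of the 4078 genes at or above the mean CPM of Smpd1, the lowest member, did. The widest reach was that of Tfeb, whose interval ended at 0.57 on the log2 scale, or 1.49-fold. Intervals of this kind cover the spread between libraries as the model estimates it from 2 libraries a group and from other genes, and with 1 library left out 26 (without WT replicate 2) to 36 (without R213G replicate 1) of the 37 lay within 1.5-fold. In bulk RNA, fewer cells of a type and less RNA per cell cannot be told apart.

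**Figure D3:**
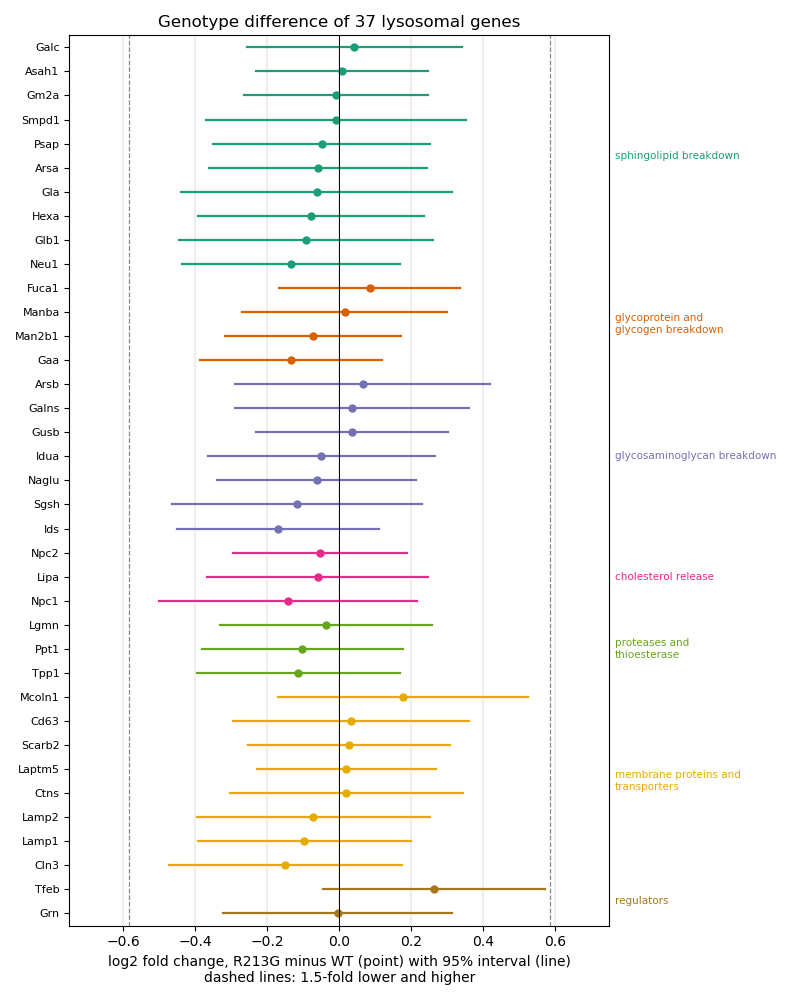
Log2 fold change (points) and its 95% interval (lines) of each gene, R213G minus WT, coloured by role. Every interval crosses 0 and ends inside the dashed lines at 1.5-fold.

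None of the 10 enzymes and activators of sphingolipid breakdown passed the test, and 2 of the 10 fold changes were positive. Psap was at 16900.1 and 20322 CPM in R213G and 20033 and 18476 CPM in WT, a log2 fold change of -0.049 ± 0.13 (SE; 95% interval -0.35 to 0.25). R213G replicate 1 was the lowest library and R213G replicate 2 the highest, so the WT values lay between those of the R213G pair. Hexa was at 1061 and 1338 CPM in R213G and 1364 and 1172 CPM in WT. Its partner activator Gm2a differed in pattern, at 1095 and 993 against 1095 and 1006 CPM, with R213G replicate 1 level with WT replicate 1. Glb1 (beta-galactosidase) and Gla (alpha-galactosidase A) had the widest gaps within R213G of the 10: Glb1 was at 122 and 167 CPM and Gla at 111 and 157 CPM. Their WT libraries were at 161 and 147 CPM for Glb1 and 149 and 132 CPM for Gla, again between the R213G values. Neu1, the sialidase, had the smallest p of this role, at 157 and 196 against 195 and 192 CPM (-0.13 ± 0.14 on the log2 scale, edgeR unadjusted p = 0.345). Acid ceramidase Asah1 was the steadiest, at 488 and 499 CPM in R213G and 488 and 492 CPM in WT. Smpd1 (acid sphingomyelinase) was at 45.6 and 53.4 against 48.9 and 50.7 CPM, Arsa (arylsulfatase A) at 80.2 and 85.0 against 90.4 and 81.9 CPM and Galc at 110.0 and 129.7 against 115 and 118 CPM. The groups overlapped in all 10 genes.

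Glycoprotein and glycogen breakdown held 3 of the 5 genes whose genotypes did not overlap, all by small margins. Gaa, the acid alpha-glucosidase that digests glycogen, was at 283 and 289 CPM in R213G and 326 and 301 CPM in WT (log2 fold change -0.13 ± 0.11, 95% interval -0.39 to 0.12). Man2b1, the lysosomal alpha-mannosidase, was at 1248 and 1226 against 1349 and 1254 CPM. Fuca1, the alpha-fucosidase, went the other way, at 226 and 227 against 211 and 217 CPM (0.084 ± 0.11). The beta-mannosidase Manba overlapped, at 143 and 166 against 154 and 152 CPM. Over the 37 genes, R213G lay wholly above WT in 2 (Fuca1 and Tfeb), against 13.7% of all tested genes, and wholly below in 3 (Gaa, Man2b1 and Ids), against 15.2%. Neither count exceeded that background.

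For glycosaminoglycan breakdown, the pathway whose defects cause the mucopolysaccharidoses, 3 of 7 genes were positive and 0 called. Ids, the iduronate sulfatase, had the lowest fold change of all 37 genes, at 115 and 127 CPM in R213G and 132 and 140.0 CPM in WT (-0.17 ± 0.13 on the log2 scale, edgeR unadjusted p = 0.205). Idua, which acts after it on heparan and dermatan sulfate, was at 90.1 and 77.1 against 89.0 and 84.2 CPM and was 1 of 2 genes highest in R213G replicate 1. The other such gene was Tfeb. Gusb, the beta-glucuronidase, was the most abundant of the 7, at 825 and 974 against 875 and 881 CPM. Naglu and Sgsh, which act on heparan sulfate, were at 248 and 294 against 287 and 279 CPM and at 59.8 and 68.6 against 75.2 and 64.1 CPM. Arsb, which removes sulfate from dermatan sulfate, was at 113 and 148 against 115 and 134 CPM, highest in R213G replicate 2. Galns, which acts on keratan sulfate, was at 150.3 and 196 against 173 and 164 CPM. All but Ids overlapped between genotypes.

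Cholesterol released from engulfed lipoproteins and membranes passes from the acid lipase Lipa to Npc2 and then to the membrane protein Npc1. Lipa was at 851 and 1108 CPM in R213G and 1036 and 1007 CPM in WT. Npc2 was the steadiest of the 3, at 1169 and 1218 against 1264 and 1215 CPM. Npc1 was at 593 and 811 against 846 and 704 CPM (log2 fold change -0.14 ± 0.16, 95% interval -0.50 to 0.22). All 3 fold changes were negative and all 3 genes were lowest in R213G replicate 1. With that library left out, Lipa was at 0.12, Npc1 at 0.067 and Npc2 at -0.024 on the log2 scale. Leaving out the lowest library raises the R213G level by construction, so the direction of this shift was fixed in advance. Among the proteases and the thioesterase, R213G replicate 1 was again lowest and WT replicate 2 second lowest. Lgmn was at 2169 and 2654 against 2601 and 2348 CPM. Tpp1, which clips tripeptides from protein ends, was at 509.6 and 624 against 626 and 601 CPM, and Ppt1, which strips palmitate from proteins, at 241 and 260.3 against 290.4 and 248 CPM. Each of these 3 overlapped between genotypes.

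Membrane proteins and transporters were the only role of 3 or more genes with a positive median, 0.019, with 5 of 8 positive and 0 called. Lamp1 was at 2163 and 2656 CPM in R213G and 2702 and 2453 CPM in WT, and Lamp2 at 568 and 763 against 702 and 698 CPM. Their fold changes were -0.10 ± 0.13 and -0.072 ± 0.14. Laptm5 was nearly level, at 2783 and 2831 against 2860.0 and 2679 CPM (95% interval -0.23 to 0.27). The tetraspanin Cd63, also carried on exosomes, was at 246 and 322 against 294 and 261 CPM. Scarb2, the receptor that brings glucocerebrosidase to lysosomes, was at 518 and 604 against 586 and 516 CPM. Mcoln1, which encodes the calcium channel mucolipin 1, had the second highest fold change of the 37, at 98.0 and 123 against 89.6 and 106 CPM (0.18 ± 0.15 on the log2 scale, edgeR unadjusted p = 0.279). Its excess was in R213G replicate 2, and R213G replicate 1 lay between the WT libraries. The cystine exporter Ctns was at 68.0 and 67.9 against 71.6 and 62.5 CPM. Cln3, mutated in juvenile Batten disease, was at 89.8 and 108 against 103 and 117 CPM and was 1 of 2 genes highest in WT replicate 2, the other being Ids.

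Tfeb had the smallest p and the largest fold change of the 37 genes, though it did not pass. It was at 93.6 and 84.0 CPM in R213G and 71.6 and 76.4 CPM in WT, from 3194 and 2922 counts against 2365 and 2622. Both R213G libraries lay above both WT libraries. The log2 fold change was 0.26 ± 0.14 (95% interval -0.047 to 0.57, edgeR unadjusted p = 0.0876, adjusted p = 1), and it ranged from 0.18 to 0.34 when each library was left out. Tfeb lies on chromosome 17 from 47737030 to 47792419 (GRCm38, plus strand). Grn, whose product supports the function of lysosomal enzymes, was at 2849 and 3748 CPM in R213G and 3269.6 and 3350.1 CPM in WT, with a fold change of -0.0050 ± 0.14. Its R213G libraries enclosed both WT values.

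Among 18 genes of the TFEB family and of mTORC1 control at the lysosome, 7 were positive and 0 called, with a median of -0.074. Flcn had the smallest p of them. It encodes folliculin, which lets mTORC1 phosphorylate TFEB and TFE3. Flcn was at 89.7 and 118 CPM in R213G and 152 and 130.4 CPM in WT (log2 fold change -0.44 ± 0.16, 95% interval -0.80 to -0.089, edgeR unadjusted p = 0.0194, adjusted p = 1). Both R213G libraries lay below both WT libraries, and the gene did not pass. Such a separation downward held for 3 of the 18 genes, against 15.2% of all tested genes, and upward for 4, against 13.7%. At an unadjusted p under 0.05 (edgeR) there was 1 of the 18, against 2.22% of all tested genes. The relatives of Tfeb were Tfe3 at 145 and 168 against 176 and 158 CPM, Mitf at 61.3 and 75.4 against 68.5 and 78.1 CPM and Tfec at 116 and 85.7 against 77.5 and 90.1 CPM. Tfe3, Mitf and Tfec overlapped between genotypes; their values, like those of Flcn, are given as levels of single genes. Of the 10 genes with CACGTG in their promoter windows, 1 was positive (Mcoln1), against 49.1% of the 1170 tested genes with that hexamer, and the median was -0.078. Of the 24 with a window without it, 10 were positive, against 49.8% of such tested genes, and the median was -0.0092. With single libraries left out, the count among the 24 changed each time, and that among the 10 only without either replicate 1. Without R213G replicate 1, 6 of 10 were positive (Gla, Glb1, Naglu, Lgmn, Lamp1 and Mcoln1), against 49.8%, and 18 of 24, against 48.9%. Without WT replicate 1, 5 of 10 (Gla, Arsa, Sgsh, Lgmn and Mcoln1) were positive, against 50.8%, and 13 of 24, against 50.2%. Without R213G replicate 2, 1 of 10 was positive, against 47.6%, and 6 of 24, against 47.1%. Without WT replicate 2, 1 of 10 was positive, against 51.4%, and 8 of 24, against 50.5%.

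The median gap between the R213G libraries was wider than that between the WT libraries. It was also wider than the median gap between genotypes, which compares pairs and not single libraries. R213G replicate 1 was the lowest of the 4 libraries for 28 of the 37 genes, against 36.5% of all tested genes. The share was 36.3% among the 4078 genes at or above the CPM of Smpd1. It lay below R213G replicate 2 for 32 of 37, against 52.2% of all tested genes, and the median difference between these 2 libraries was -0.24 on the log2 scale, against -0.022 over all tested genes. Npc1, Lamp2, Glb1 and Gla had the widest such gaps, from -0.43 for Lamp2 to -0.49 for Gla. The exceptions were Tfeb, Idua, Gm2a, Man2b1 and Ctns, which were at or above the level of R213G replicate 2. Between the WT libraries the median difference, replicate 1 minus 2, was 0.075. The genes share these libraries and are not independent of each other. R213G replicate 1 was also the library of fewest detected genes and highest Gm42418. It had the highest summed epithelial markers (5 tested of 11), at 34.5 and 21.1 CPM in R213G and 18.1 and 14.3 CPM in WT. Most of this came from Epcam, at 32.2 and 14.8 against 14.9 and 9.59 CPM. Of the 5, only 1 was highest in R213G replicate 1, and 3 were lowest in it. The summed B cell markers of R213G replicate 1 (2 tested of 6) were the highest too, at 23.9 and 8.10 CPM in R213G and 17.2 and 6.32 CPM in WT. That sum was higher in replicate 1 than in replicate 2 of either genotype, so it was not particular to this library. The summed neutrophil markers of R213G replicate 1 (3 tested of 10) were the lowest, at 65.0 and 68.5 CPM in R213G and 85.6 and 82.2 CPM in WT. R213G replicate 2 was close to it, and both R213G libraries lay below both WT libraries. The low sum came from Csf3r, at 45.3 and 55.4 against 74.5 and 68.0 CPM. S100a8 went the other way, at 19.7 and 12.2 against 11.1 and 13.2 CPM. The part of these library traits in the lysosomal values was not tested. Among genes with a promoter window, R213G replicate 1 was the lowest library for 9 of the 10 with CACGTG and for 16 of the 24 without, against 35.4% and 35.5% of tested genes of each kind, with median gaps to R213G replicate 2 of -0.28 and -0.22.

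**Figure D4:**
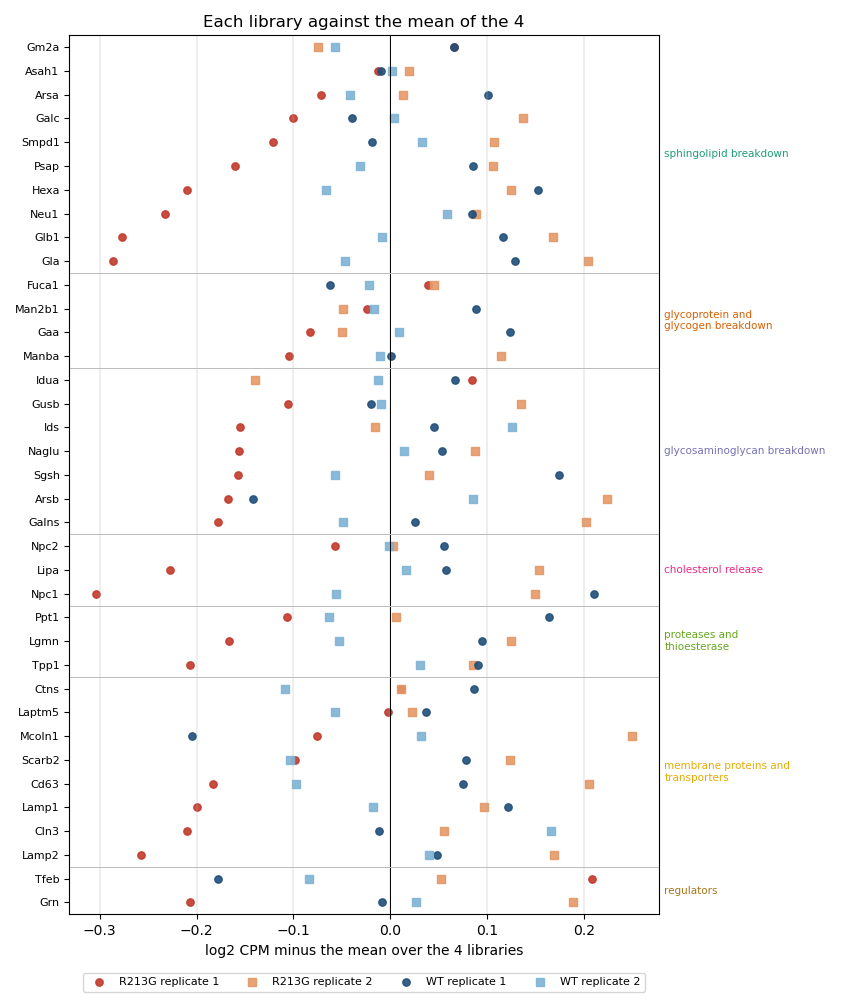
Log2 CPM of each library minus the mean of the 4 libraries, per gene and by role (red and orange, R213G replicates 1 and 2; dark and light blue, WT replicates 1 and 2). Red points lie farthest left for 28 of 37 genes, with Tfeb at the other side.

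The sign of the list's median changed when single libraries were left out. Without R213G replicate 1, 27 of 37 genes were positive, against 48.2% of all tested genes, and the median was 0.078. Without WT replicate 1, 20 of 37 were positive, against 50% of all tested genes, and the median was 0.0017. Without R213G replicate 2, 7 of 37 were positive, against 45.9%, and the median was -0.16. That fit holds 1 R213G library, which is assumed to vary like the WT pair, so its p-values take their spread from the 2 WT libraries and from other genes. In it 8 of the 37 genes had an unadjusted p under 0.05, against 13.5% of all tested genes (edgeR), and 0 passed after adjustment, with a smallest adjusted p of 0.304. The 8 were Gla, Glb1, Neu1, Lipa, Npc1, Tpp1 and Lamp2, which were negative, and Tfeb, which was positive. Npc1 was the lowest of them at -0.39. The summed level of the 37 genes was 38678 and 45714 CPM in R213G and 44939 and 41979.7 CPM in WT. That is 42196 ± 4975 CPM against 43459 ± 2092 CPM (SD, n = 2), and an exact permutation test gave a two-sided p of 1, where 2 against 2 libraries cannot go below 0.333.

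The summed levels of other genes of the pathway had the same lowest library. Cathepsins summed to 31519 and 38844 CPM in R213G and 39003 and 35129 CPM in WT, led by Ctsd, the main aspartic protease of lysosomes, at 7625 and 11619 against 11370.0 and 9813 CPM. As a share of its own mean over the 4 libraries, the summed level in R213G replicate 1 was 87.3% for cathepsins, 88.8% for other hydrolases, 89.8% for other membrane proteins and 90.3% for the 37 genes. It was 92.6% for proton pump subunits, 92.7% for the TFEB and mTORC1 genes and 94.4% for mannose 6-phosphate sorting, the route that brings new hydrolases to the lysosome. The other 3 libraries lay between 97.2% and 108% in all 7 lists. By genotype, 4 of 12 tested cathepsins, 7 of 18 other hydrolases, 9 of 21 other membrane proteins, 7 of 18 proton pump subunits and 4 of 11 sorting genes were positive, and 0 were called in any list. Their medians ran from -0.044 (cathepsins) to -0.0080 (sorting). The genes of smallest p were Ctsf at -0.54 ± 0.41, the phosphatase Acp2 at -0.17 ± 0.13, the transporter Mfsd8 at 0.49 ± 0.32, the pump subunit Tcirg1 at -0.14 ± 0.12 and the adaptor Gga3 at -0.25 ± 0.14 on the log2 scale.

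**Figure D5:**
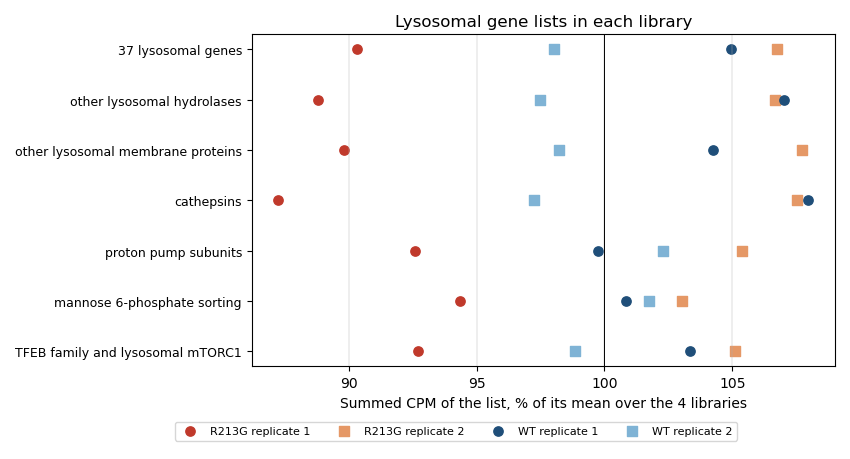
Summed CPM of each list in each library, as a percentage of the list's mean over the 4 libraries (red and orange, R213G replicates 1 and 2; dark and light blue, WT replicates 1 and 2). R213G replicate 1 is the leftmost point in all 7 lists, between 87.3% and 94.4%.

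The lowest count of any of the 37 genes in any library was 1556, for Smpd1. Exons of 12 of the 37 genes overlap exons of another annotated gene, all but Glb1 (with Tmppe) on the opposite strand. The overlap covers over 10% of the exons in 4 genes, Arsb (39.9%), Sgsh (21.6%), Arsa (18.8%) and Hexa (12.8%), and how such reads were counted is not given in the sources used here.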

How the data were processed

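RNA of sorted recruited alveolar macrophages was sequenced from 2 R213G and 2 WT libraries. Per the labels' protocols, libraries were directional and made from poly(A) RNA. The table that the authors deposited holds raw, unnormalized read counts, with gene symbols as rows and libraries as columns. The submitters' processing notes name STAR 2.5.1b, featureCounts of Subread 1.4.4 and GRCm38. The annotation, strand setting and handling of multi-mapping reads are not stated there.

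Short names given as sample descriptions tied each column to its sample. No pair of libraries agreed within sampling noise (the lowest chi-square per degree of freedom was 16.6). Genotypes were compared over all genes passing filterByExpr with edgeR 4.0.16 (quasi-likelihood, robust, the newer form, TMM, Benjamini-Hochberg, threshold 0.05), in R 4.3.3, and the scripts were tested on simulated data. Intervals are 95% by the t distribution with the degrees of freedom of the fit. Lengths came from GENCODE vM21. Alternatives were other scalings and filters, DESeq2 1.42.0, the legacy form, limma 3.58.1 voom, a replicate block and leaving out each library. The genes and lists were chosen with earlier results of these data known. All 37 genes are named by rule, with the member of smallest p of each pathway list and the member of highest CPM of each marker list. Tfe3, Mitf, Tfec, Ctsd, Gm42418 and S100a8, as well as Fcgr1, Itgam and Siglecf of the gate, were chosen after their values were seen. Protein features were planned and not computed.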

Additional observations from a re-analysis of the deposited data

How the results depend on the processing

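Under the other scalings and filters, the legacy form, DESeq2, limma voom and the replicate block, all 37 genes kept the sign of their fold change, 13 of 37 stayed positive and 0 were called, with medians from -0.054 to -0.047. Over all genes, DESeq2 called 1 gene (Clrn2) where edgeR called 0. The count at an unadjusted p under 0.05 was 302 in the main fit. Under these alternatives it ran from 150 (mean of at least 5 CPM) to 303 (upper-quartile scaling), with 227 for limma voom and 271 for DESeq2. Leaving out each library leaves 1 library in its group, assumed to vary like the pair of the other group. These fits gave 0 to 2 called genes (Lars2 and Gm42418, without R213G replicate 2), 71 (without WT replicate 1) to 1960 (without R213G replicate 2) genes at an unadjusted p under 0.05, 7 to 27 positive members, medians of -0.16 to 0.078 and a summed difference, R213G minus WT, of -4875 to 2271 CPM against -1263 with all 4 libraries. Sign changes of single members came only from leaving out a library: 14 genes without R213G replicate 1, 10 without R213G replicate 2, 9 without WT replicate 1 and 7 without WT replicate 2. Their log2 fold changes over the 4 such fits were -0.26 to 0.078 for Hexa, -0.33 to 0.16 for Gla, -0.33 to 0.11 for Glb1, -0.085 to 0.16 for Galc, -0.31 to 0.018 for Neu1, -0.011 to 0.025 for Asah1, -0.13 to 0.10 for Smpd1, -0.13 to 0.012 for Arsa, -0.19 to 0.079 for Psap, -0.079 to 0.057 for Gm2a, -0.10 to 0.12 for Manba, -0.094 to 0.15 for Gusb, -0.19 to 0.055 for Naglu, -0.23 to 0.0017 for Sgsh, -0.17 to 0.055 for Idua, -0.15 to 0.25 for Arsb, -0.17 to 0.21 for Galns, -0.27 to 0.12 for Lipa, -0.39 to 0.067 for Npc1, -0.27 to 0.026 for Tpp1, -0.19 to 0.10 for Lgmn, -0.21 to 0.014 for Ppt1, -0.26 to 0.044 for Lamp1, -0.30 to 0.13 for Lamp2, -0.027 to 0.067 for Laptm5, -0.18 to 0.21 for Cd63, -0.091 to 0.13 for Scarb2, -0.076 to 0.12 for Ctns and -0.22 to 0.18 for Grn. The replicate numbers are not tied to shared animals or days in the labels. The R213G and WT differences between replicates 1 and 2 correlated at 0.14 across genes, and the replicate block gave 298 genes at an unadjusted p under 0.05 and 0 called. In a check added after seeing the data, 37 of 37 intervals lay within 1.5-fold under the other scalings and filters, the legacy form and the replicate block, and 26 to 36 with a library left out. In another such check, the genes with CACGTG had 1 of 10 positive and those without it 10 of 24 under the other scalings, filters and tools and the block, and 1 to 6 of 10 and 6 to 18 of 24 with a library left out. Per kb of the longest transcript, 24 of the 37 genes were in the top 10%, against 25 per kb of exon. Counts of these genes were at least 1556 per library, so counting error was small beside SEs of 0.11 to 0.17 on the log2 scale.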
